A study of Mus musculus with 33 samples.

Results

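The genes described here are the mouse Wnt ligands, their Frizzled and Lrp receptors and the secreted proteins that block them, followed through reprogramming of fibroblasts to pluripotency. They were chosen by gene symbol alone: every row named as a Wnt, Fzd, Sfrp or Dkk gene, with Frzb, Wif1, Lrp5 and Lrp6. The rule found 42 of the 37973 rows, which carry 41 symbols because Fzd10 is listed under 2 identifiers. There were 19 ligands, 11 receptor rows, 2 co-receptors and 10 antagonists.

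Wnt proteins are lipid-modified, secreted signals that act over short distances. In the canonical branch a Wnt binds a Frizzled together with Lrp5 or Lrp6, beta-catenin is spared from degradation, and it activates genes with TCF/LEF factors. In the non-canonical branches, for which Wnt5a, Wnt5b and Wnt11 are the usual examples, Frizzleds act with Ror or Ryk on cell polarity and movement without beta-catenin. Sfrp proteins, Frzb and Wif1 bind Wnts in the extracellular space, while Dkk1 and Dkk2 act on the Lrp co-receptors. Wnt signals are known to support the self-renewal of mouse pluripotent cells, and fibroblasts are a rich source of Wnt ligands and antagonists.

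PolyA RNA was sequenced from primary mouse embryonic fibroblasts (MEFs), taken from embryos at 14 to 15 days post coitum, of crossed B6 and B6;129S4 strains, that carried Col1a1-OSKM+/-, Rosa26-rtTA+/- and Oct4-GFP+/- alleles. OSKM stands for Pou5f1 (Oct4), Sox2, Klf4 and Myc, which doxycycline switches on through rtTA, and the labels give doxycycline at 1 μg/ml. In the Dppa2/4 arm the cells in addition overexpressed Dppa2 with Dppa4, chromatin-associated proteins of early embryos and pluripotent cells, while the other arm was labelled as control overexpression. The labels mention lentiviral transduction. Cells were collected on days 2, 4, 8, 11 and 14 by gates on Thy1 (a fibroblast antigen), SSEA1 (an antigen gained early) and the Oct4-GFP reporter (gained late). From day 8 on, the titles of the Thy1 and SSEA1 gates also name the cells as GFP-negative, while those of days 2 and 4 name no GFP gate. Dppa2/4 cells had 4 Thy1+SSEA1- libraries, 2 Thy1+SSEA1+, 5 Thy1-SSEA1-, 3 Thy1-SSEA1+ and 3 GFP+, and control cells had 4 Thy1+SSEA1-, 4 Thy1-SSEA1-, 3 Thy1-SSEA1+ and 2 GFP+. A further library of each arm was titled rtTA-MEF, with a genotype label that lists no OSKM allele. Whether a library came from 1 animal or a pool is not given in the sources used here.

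Each arm, day and gate was 1 library, so there were no replicates. Values are FPKM (fragments per transcript length and library size), a per-length scale on which genes can be compared, and tests were made on log2(FPKM + 1), where low genes show too small a change. Tests compared the arms over 13 matched combinations of day and gate, called pairs here, or gates of the same arm and day, called a culture here. Their p-values therefore measure how steady a difference was across days and gates and not the spread between animals or separate dishes. Whether the gates of an arm and day were sorted from the same dish is not given in the sources used here. All p-values are from limma, two-sided, adjusted by Benjamini-Hochberg over 17242 genes, with 0.05 as the threshold.

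Implied depth was 21.4 to 42.7 M fragments in OSKM libraries. Dppa2 was at 43.2 to 612 FPKM in 16 Dppa2/4 libraries of OSKM cells and at 0.149 to 0.916 FPKM in the 8 SSEA1- control libraries. Of the later gates, Thy1-SSEA1+ cells had 43.2 to 123 FPKM with Dppa2/4 and 6.40 to 14.1 FPKM in the control arm, and GFP+ cells had 49.3 to 61.5 FPKM and 45.4 and 66.1 FPKM, so the arms overlapped in Dppa2 in GFP+ cells. One library, that of day 4 Thy1+SSEA1- cells labelled Dppa2/4, went against its label, with Dppa2 at 0.354 and Dppa4 at 0.409 FPKM. It is called the library lacking Dppa2, and some results that rest on it are given with and without it. The other Dppa2/4 libraries of day 4 had Dppa2 at 111 FPKM (Thy1-SSEA1-) and 92.4 FPKM (Thy1+SSEA1+). Title and description name different gates for the control GFP+ library of day 11, which was used as titled. Summed over 10 fibroblast markers, Thy1+SSEA1- cells had 767 to 2751 FPKM with Dppa2/4 and 2429 to 3603 FPKM in the control arm. Thy1-SSEA1- cells had 1403 to 7820 FPKM with Dppa2/4 and 1745 to 8337 FPKM in the control arm, so the highest sums were in that gate. The same sum in GFP+ cells was 196 to 301 FPKM with Dppa2/4 and 335 to 351 FPKM in the control arm. Pluripotency markers (8 genes) summed to 3022 to 4126 FPKM in Dppa2/4 and 4042 to 5578 FPKM in control GFP+ cells. In Thy1-SSEA1+ cells that sum was 259 to 888 FPKM with Dppa2/4 and 847 to 1859 FPKM in the control arm. Endothelial, immune, keratinocyte, muscle, and neural and glial markers (4 to 5 genes a list) summed to at most 88.6 FPKM in any library.

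Reprogramming fibroblasts expressed a broad but uneven set of Wnt components, in which the antagonist Sfrp1 had the highest level. Of the 42 rows, 8 were at 1 FPKM or more in all 32 libraries: Sfrp1, Dkk3 and Sfrp2 among the antagonists, Fzd5, Fzd6 and Fzd7 among the receptors, and both Lrp co-receptors. No ligand was. At the other end, Dkk4, Wnt1, Wnt3, Wnt3a, Wnt8b, Wnt9b and the second Fzd10 row stayed below 1 FPKM everywhere, with a highest value of 0.604 FPKM. These 7 were not tested, and 35 rows passed the filter of 1 FPKM in at least 2 libraries. Wnt1, Wnt3 and Wnt3a, the canonical ligands of many textbook experiments, were among the 7, their highest values being 0.399, 0.465 and 0.358 FPKM.

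Among antagonists, Sfrp1 was the most abundant in 29 of 32 libraries and Dkk3, a divergent member of the Dkk family, in the other 3. Sfrp1 made up 81.6% to 89.1% of the summed antagonist FPKM in Dppa2/4 GFP+ cells and 82.1% and 83.5% in control GFP+ cells. Dkk3 led in Thy1-SSEA1- cells of both arms on day 2, at 109 FPKM each, and in Dppa2/4 Thy1-SSEA1- cells on day 14. Among receptors, Fzd7, a Frizzled of embryonic stem cells, was highest in 27 of 32 libraries, with a median of 25.1 FPKM. Lrp6 led Lrp5 in 17 libraries and Lrp5 led in 15, so their order was not fixed.

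The leading ligand differed from group to group. Wnt5a, the prototype of non-canonical signalling, led in 12 libraries, Wnt5b in 7, Wnt16, a ligand best known from bone, in 4, Wnt7b and Wnt9a in 3 each, Wnt8a in 2 and Wnt2 in 1. In Dppa2/4 Thy1+SSEA1- cells Wnt5b led on days 2 and 8, Wnt16 on day 4, in the library lacking Dppa2, and Wnt9a on day 14, while in control Thy1+SSEA1- cells Wnt5a led on day 2 and Wnt16 on days 4, 8 and 14. Summed ligand FPKM was 4.73 to 7.56 in Dppa2/4 GFP+ cells and 3.21 and 4.73 in control GFP+ cells. The same sum was 14.4 to 18 in Dppa2/4 and 12.4 to 18.9 in control Thy1-SSEA1+ cells. For Thy1+SSEA1- cells it was 22.0 to 43.7 in Dppa2/4 and 25.8 to 49.4 in control cultures. The ranges of this total overlapped between arms in Thy1-SSEA1+ and Thy1+SSEA1- cells.

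**Figure D1:**
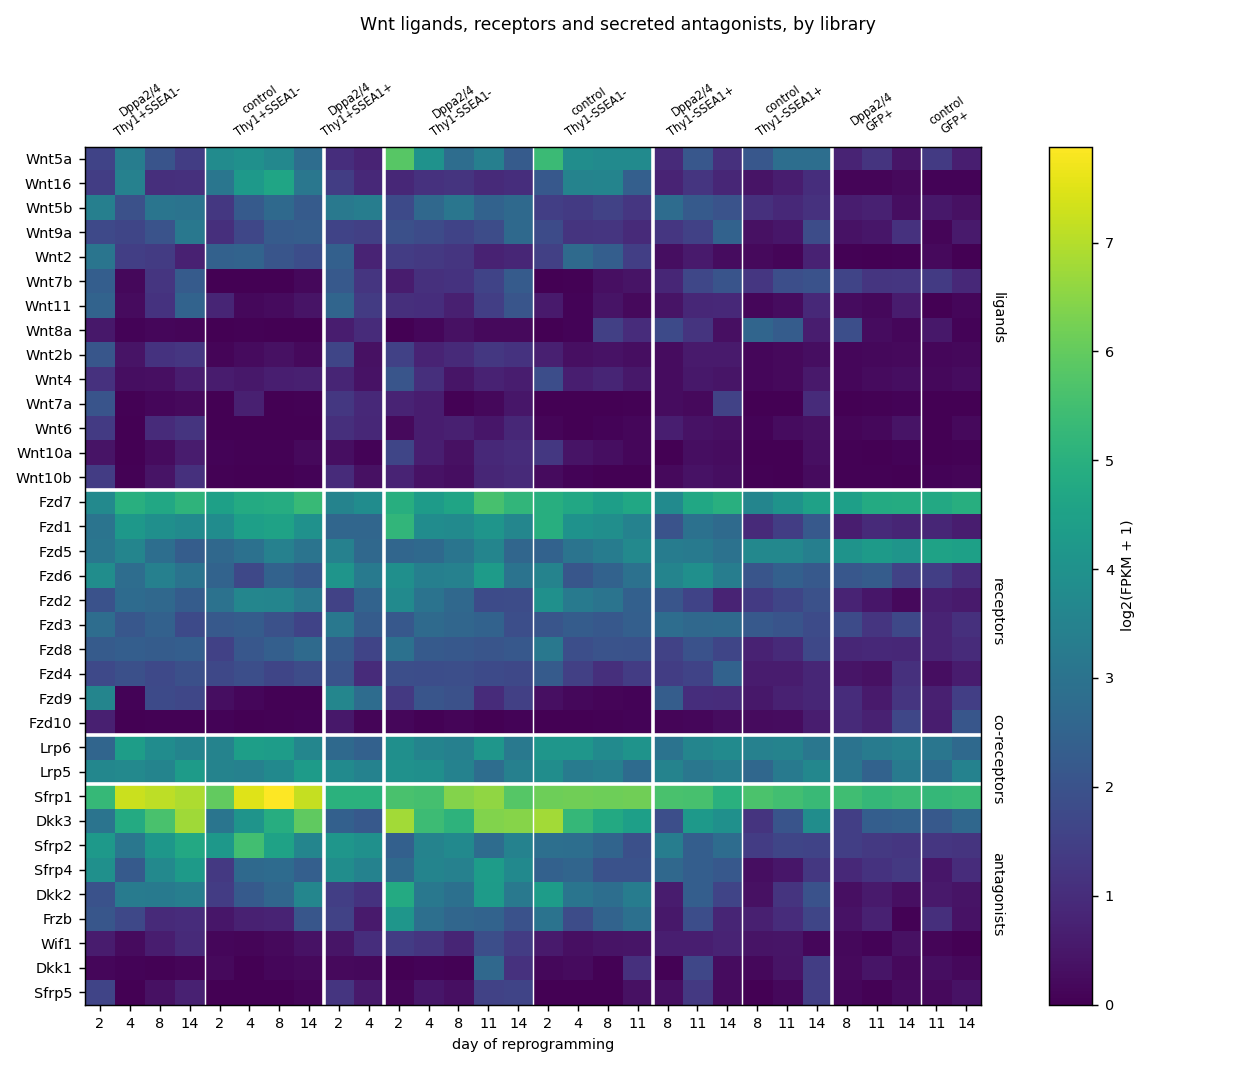
Level of each of the 35 members tested, as log2(FPKM + 1), in the 30 libraries of OSKM cells, grouped by gate and arm with days in order. Sfrp1, Dkk3 and Fzd7 are the brightest rows; Wnt16 is bright in control Thy1+SSEA1- and Thy1-SSEA1- cells, and Fzd1 and Dkk2 are lowest in GFP+ cells.

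With Dppa2/4, more Wnt components rose than fell, and ligands were among both. Of 35 members tested, 14 were higher (15.9% of all genes tested were called higher) and 3 were lower (7.6% of all genes), where 23.5% of all genes were called in either direction. The ligands Wnt5b, Wnt11, Wnt7b, Wnt2b, Wnt9a, Wnt6 and Wnt10b, the receptors Fzd6, Fzd9, Fzd4 and Fzd3, and the antagonists Sfrp4, Dkk3 and Wif1 rose. The ligands Wnt16 and Wnt5a and the receptor Fzd2 fell. Lrp5 and Lrp6 did not pass the test, at log2 differences of 0.09 and -0.11. The median log2 difference was 0.34 over the members tested and 0.03 over all genes. Leaving out the library lacking Dppa2 gave 14 members higher and 4 lower, and leaving out day 8 gave 9 calls in all. Of the members called, only Dkk3 lost its call without that library, so another member took its place among the 14. Quantile normalization gave 11 higher and 4 lower members, and for all genes it moved the calls from 2737 higher and 1310 lower to 2094 and 2019. In bulk samples such as these, fewer cells of a type and less RNA per cell cannot be told apart. Of the markers of other cells tested, 5 of 6 epithelial, 2 of 2 immune, 1 of 4 neural and glial and 1 of 1 muscle markers rose with Dppa2/4, and 3 of 10 fibroblast, 1 of 3 endothelial and 1 of 3 keratinocyte markers fell. In Thy1+SSEA1- cells the 6 epithelial markers summed to 51.2 to 318 FPKM with Dppa2/4 and 12.2 to 56.5 FPKM in control cells, and the 5 neural and glial markers to 0.693 to 88.6 and 1.01 to 7.59 FPKM. The part of these cells in the result was not tested. Pou5f1, one of the OSKM genes, also differed between arms. In Thy1-SSEA1+ cells it was at 312 to 491 FPKM with Dppa2/4 and 789 to 911 FPKM in control cells. The ranges overlapped in Thy1+SSEA1- cells (78.3 to 500 and 213 to 409 FPKM) and in Thy1-SSEA1- cells (75.7 to 285 and 94.9 to 382 FPKM). Some pairs thus differ in more than Dppa2 and Dppa4, and the part of Pou5f1 was not tested.

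Fzd6, a Frizzled that patterns hair follicles through planar cell polarity (chr15:39006034-39038188, GRCm38), was higher in all 13 pairs. In Thy1+SSEA1- cells on days 2, 4, 8 and 14 it was at 13.6, 6.01, 9.84 and 7.08 FPKM with Dppa2/4, against 4.74, 2.29, 4.53 and 3.46 FPKM in control cells. In Thy1-SSEA1- cells on days 2, 4, 8 and 11 it was at 14.1, 9.48, 10.1 and 19.0 FPKM with Dppa2/4, against 10.6, 3.30, 4.62 and 6.63 FPKM in control cells. In Thy1-SSEA1+ cells on days 8, 11 and 14 it was at 10.7, 14.1 and 9.24 FPKM with Dppa2/4, against 3.21, 4.36 and 3.57 FPKM in control cells, and in GFP+ cells on days 11 and 14 at 3.95 and 1.94 FPKM, against 1.76 and 1.02 FPKM. The 6.01 FPKM belongs to the library lacking Dppa2, which was as far above its control (1.09 on the log2 scale) as the other Thy1+SSEA1- libraries (0.859 to 1.34). All 13 libraries labelled Dppa2/4 were above their controls, and within Thy1+SSEA1- and within Thy1-SSEA1+ cells the arms did not overlap. The log2 difference was 1.06 ± 0.10 (SE, 13 pairs, limma adjusted p = 0.000141), and without the library lacking Dppa2 it was 1.06 ± 0.11 (adjusted p = 0.000112).

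Fzd9 (chr5:135248938-135251230, GRCm38), a Frizzled studied mostly in brain and bone, was close to silent in control fibroblasts. In Thy1+SSEA1- cells it was at 11.1, 0.0521, 2.39 and 2.18 FPKM with Dppa2/4 on days 2, 4, 8 and 14, against 0.227, 0.106, 0.031 and 0.0377 FPKM in control cells, and the 0.0521 FPKM belongs to the library lacking Dppa2. Thy1-SSEA1- cells of the same days and of day 11 in place of day 14 had 1.46, 3.23, 2.85 and 0.956 FPKM with Dppa2/4, against 0.246, 0.131, 0.0834 and 0.0499 FPKM in control cells. In GFP+ cells the order turned, with 0.488 and 1.31 FPKM with Dppa2/4 and 0.600 and 1.74 FPKM in control cells. The log2 difference was 1.09 ± 0.27 (SE, higher in 10 of 13 pairs, limma adjusted p = 0.0113), and without day 8 the adjusted p was 0.0903. Of the other receptors, Fzd4, which also binds Norrin in retinal vessels, rose by 0.42 ± 0.14 and Fzd3, a receptor of axon guidance, by 0.41 ± 0.09, each in 12 of 13 pairs. The limma adjusted p was 0.0468 for Fzd4 and 0.00575 for Fzd3. When pairs and days were left out in turn, the Fzd4 call was lost in 13 of 18 fits, with adjusted p up to 0.16, and the Fzd3 call in none.

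Sfrp4 (chr13:19623104-19632994, GRCm38), a secreted Frizzled-like protein that binds Wnts, had the largest rise of any member tested. Thy1+SSEA1- cells had 14.6, 3.65, 12.1 and 18.6 FPKM with Dppa2/4, against 1.45, 5.53, 5.78 and 4.19 FPKM in control cells. Thy1-SSEA1+ cells had 5.30, 4.17 and 3.55 FPKM with Dppa2/4, against 0.215, 0.395 and 1.44 FPKM in control cells. The library lacking Dppa2, at 3.65 FPKM, was the only one of 13 below its control. The log2 difference was 1.25 ± 0.25 (SE, limma adjusted p = 0.00326). Dkk3 was at a lowest, median and highest of 2.69, 27.0 and 109 FPKM over the 13 Dppa2/4 libraries and 1.27, 16.1 and 109 FPKM over the 13 control libraries, a log2 difference of 0.58 ± 0.19 (higher in 10 of 13 pairs, adjusted p = 0.0391). That call was lost in 11 of 18 fits that left out a pair or a day, with adjusted p up to 0.122, and also when the library lacking Dppa2 was left out. Wif1, which binds Wnts through a domain of its own, rose by 0.50 ± 0.11 (adjusted p = 0.00577), with a highest value of 2.71 FPKM in Dppa2/4 and 0.497 FPKM in control cells.

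Among the ligands that rose, Wnt5b was the most abundant, at a lowest, median and highest of 0.219, 4.55 and 9.56 FPKM with Dppa2/4 and 0.284, 1.43 and 5.46 FPKM in control cells. Its log2 difference was 0.87 ± 0.19 (SE, higher in 11 of 13 pairs, adjusted p = 0.00622), and the pairs below 0 were day 14 GFP+ and the one with the library lacking Dppa2. Wnt11, a non-canonical ligand of tissue elongation, was at 0.122, 0.887 and 4.70 FPKM with Dppa2/4 and 0, 0.163 and 0.885 FPKM in control cells on the same 3 measures, and no control library of a pair reached 1 FPKM while 6 of the Dppa2/4 libraries did. Its difference was 0.71 ± 0.17 (SE, higher in 13 of 13 pairs, adjusted p = 0.00828). Wnt2b, a ligand of lung and retina, was also higher in 13 of 13 pairs, by 0.60 ± 0.14 (adjusted p = 0.00928), at no more than 0.622 FPKM in any paired control library and 3.28 FPKM in Dppa2/4 cells. These 3 ligands kept their calls when any pair or day was left out.

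Wnt7b, a ligand of lung and kidney epithelium, was at 4.13, 0.126, 1.33 and 3.78 FPKM in Thy1+SSEA1- cells with Dppa2/4, and near 0 in control ones, at 0.00937, 0, 0.0102 and 0.133 FPKM; the 0.126 FPKM belongs to the library lacking Dppa2. The arms overlapped in Thy1-SSEA1+ cells, at 0.811, 2.19 and 3.10 FPKM with Dppa2/4 and 1.39, 2.68 and 2.98 FPKM in control cells. Over all pairs its difference was 0.69 ± 0.22 (SE, higher in 10 of 13, adjusted p = 0.0356), and the call was lost in 11 of 18 fits that left out a pair or a day, with adjusted p up to 0.0965. Wnt9a, a ligand of joint formation, was at 0.398, 2.34 and 7.86 FPKM (lowest, median and highest) with Dppa2/4 and 0.067, 1.29 and 4.03 FPKM in control cells, a difference of 0.52 ± 0.11 (higher in 11 of 13 pairs, adjusted p = 0.00471). Wnt6 and Wnt10b rose by 0.48 ± 0.12 and 0.41 ± 0.12 (adjusted p = 0.0129 and 0.0247), at no more than 1.52 and 1.66 FPKM with Dppa2/4 and 0.272 and 0.172 FPKM in control cells, and Wnt6 was listed at 0 in all 4 control Thy1+SSEA1- libraries. The Wnt6 call was lost without day 8 and the Wnt10b call in 5 of 18 fits, with adjusted p up to 0.0861 and 0.0783.

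**Figure D2:**
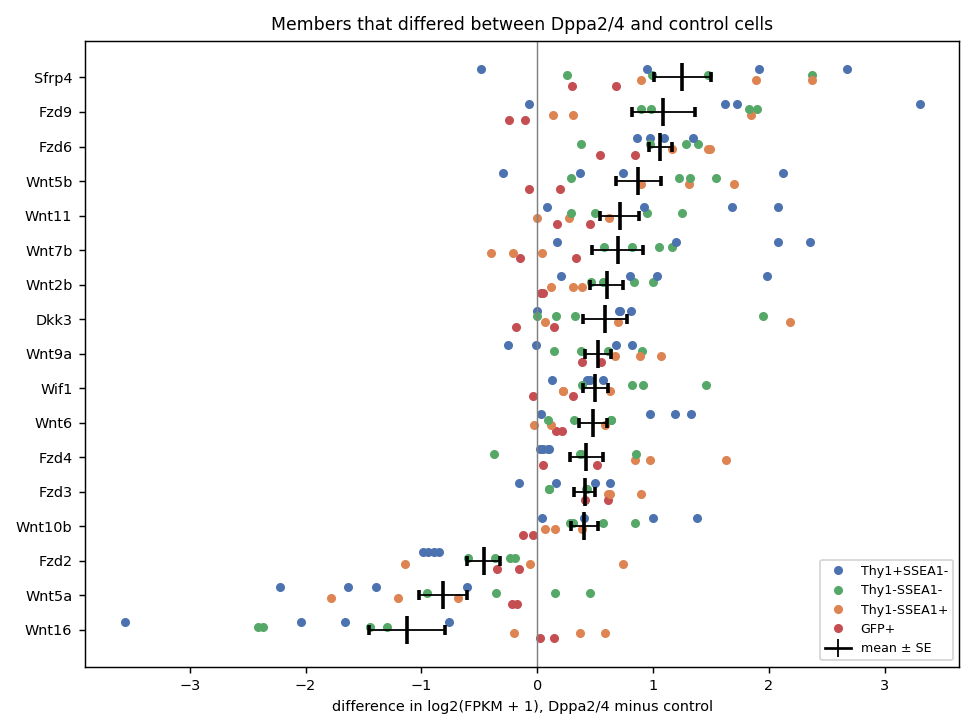
Difference in log2(FPKM + 1), Dppa2/4 minus control, for the 17 members that passed the test, with 1 point for each of 13 pairs coloured by gate and a black mark with bars for mean and SE. All Fzd6, Wnt11 and Wnt2b points lie above 0, and the Wnt16 points lie far below 0 in Thy1+SSEA1- and Thy1-SSEA1- cells but near 0 or above in Thy1-SSEA1+ and GFP+ cells.

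Sequences just before the RefSeq starts of these genes were read to show how CpG-rich they are. RefSeq promoter windows (GRCm38.p6) were at hand for 27 of 41 symbols, and the 250 bases before the start nearest to the annotated gene start were read in each. For Fzd9 and Wnt2b the RefSeq start lay 183 and 212 bases inside the annotated gene, so most of their windows overlaps the gene. Windows of the 4 members with the largest rises that have one, and of the only member that fell and has one, are given here, 5′ to 3′ on the gene's own strand, with each CpG in capitals: chr5:135251048-135251297 (minus strand) for Fzd9, chr6:119544348-119544597 (minus) for Wnt5b, chr7:98834862-98835111 (plus) for Wnt11, chr3:104961710-104961959 (minus) for Wnt2b, all higher with Dppa2/4, and chr6:22287977-22288226 (plus) for Wnt16, lower with Dppa2/4.
Fzd9: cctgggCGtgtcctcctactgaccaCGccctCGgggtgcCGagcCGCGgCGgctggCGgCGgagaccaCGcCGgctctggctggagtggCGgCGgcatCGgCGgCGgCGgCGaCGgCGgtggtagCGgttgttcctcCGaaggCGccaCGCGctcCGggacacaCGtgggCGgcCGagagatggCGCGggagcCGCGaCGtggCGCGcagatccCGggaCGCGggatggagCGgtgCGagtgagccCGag
Wnt5b: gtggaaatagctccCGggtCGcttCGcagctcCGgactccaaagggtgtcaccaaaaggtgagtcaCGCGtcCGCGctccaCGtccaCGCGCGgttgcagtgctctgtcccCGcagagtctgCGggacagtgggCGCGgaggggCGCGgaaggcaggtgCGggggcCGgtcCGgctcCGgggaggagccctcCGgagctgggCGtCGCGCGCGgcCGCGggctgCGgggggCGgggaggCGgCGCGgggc
Wnt11: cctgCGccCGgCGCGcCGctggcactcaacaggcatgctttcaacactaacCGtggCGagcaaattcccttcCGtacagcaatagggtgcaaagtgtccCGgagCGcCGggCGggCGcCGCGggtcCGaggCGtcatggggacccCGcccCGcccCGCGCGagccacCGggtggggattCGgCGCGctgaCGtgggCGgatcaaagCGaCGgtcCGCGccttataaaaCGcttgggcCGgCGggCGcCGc
Wnt2b: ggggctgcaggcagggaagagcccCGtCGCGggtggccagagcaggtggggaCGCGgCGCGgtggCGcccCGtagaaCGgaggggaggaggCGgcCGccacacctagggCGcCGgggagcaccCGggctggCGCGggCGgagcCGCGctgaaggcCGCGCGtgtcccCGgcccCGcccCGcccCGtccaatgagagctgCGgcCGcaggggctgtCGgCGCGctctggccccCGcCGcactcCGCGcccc
Wnt16: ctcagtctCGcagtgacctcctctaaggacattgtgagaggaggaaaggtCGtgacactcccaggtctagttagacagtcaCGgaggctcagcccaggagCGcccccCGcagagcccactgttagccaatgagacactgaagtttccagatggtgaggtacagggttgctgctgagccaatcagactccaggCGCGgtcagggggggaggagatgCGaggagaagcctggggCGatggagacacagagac

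Fzd9, Wnt5b, Wnt11 and Wnt2b held 42, 35, 37 and 36 CpG in these windows, and Wnt16 held 9. Over the 9 members with a window that rose, the count ran from 14 to 48 with a median of 35, over the 12 that were tested and not called it ran from 6 to 44 with a median of 16.5, and Wnt16 was the only member that fell with a window. The median over all 32851 RefSeq windows was 6, and 64.4% of windows held 10 or fewer. That median takes every window of a gene, while each member was counted by the window nearest its start, so the counts are not alike. Inner windows of Wnt5b held 4 and 7 CpG, and that of Wnt11 held 16. The ranges of members that rose and members not called overlap. The counts are a description of the few members with a window, and no test was made. Letters of the TCF/LEF core, CTTTGAT on either strand, stood in 2 of 30 member windows, 1 of Wnt11 and 1 of the inner windows of Wnt5b, and in 3.21% of all windows. TATAAA on either strand stood in 5 of 30 member windows and in 12.4% of all.

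Wnt16 (chr6:22288227-22298522, GRCm38) showed the widest gap among the members that fell, and the gap lay in the SSEA1- gates. In Thy1+SSEA1- cells on days 2, 4, 8 and 14 it was at 1.70, 10.0, 1.11 and 1.12 FPKM with Dppa2/4, against 7.53, 17.7, 23.9 and 7.75 FPKM in control cells. The 10.0 FPKM belongs to the library lacking Dppa2, and the other 3 Dppa2/4 libraries lay below every control library. Thy1-SSEA1- cells on days 2, 4, 8 and 11 had 0.845, 1.16, 1.29 and 0.930 FPKM with Dppa2/4, against 3.54, 10.5, 10.8 and 4.24 FPKM in control cells, again without overlap. Thy1-SSEA1+ cells had 0.729, 1.30 and 0.794 FPKM with Dppa2/4 and 0.342, 0.541 and 1.06 FPKM in control cells, and GFP+ cells of both arms 0.161 FPKM or less. Over all pairs the log2 difference was -1.13 ± 0.32 (SE, lower in 9 of 13 pairs, limma adjusted p = 0.0228), a call that was lost without day 2, 4, 8 or 14, with adjusted p up to 0.0629.

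The dependence on gate was tested, with a limit set by low values. Control cells of the SSEA1+ or GFP+ pairs had Wnt16 at only 0.0507 to 1.06 FPKM. A fall as large as that in the SSEA1- pairs could not show there. The test therefore cannot tell a weaker effect of Dppa2/4 in these gates from this floor. The Wnt16 difference between arms averaged 0.18 on the log2 scale over the 5 SSEA1+ or GFP+ pairs and -1.94 over the 8 SSEA1- pairs, and the difference between these was 2.13 ± 0.38 (SE, limma adjusted p = 0.0258). Wnt16 was the only one of 35 members to pass this test of the difference as higher (0.423% of all genes were called higher), and none passed as lower (0.423%), with 0.847% of all genes called in either direction. Of 6 epithelial markers, 3 passed as lower in this test, and their part in the result was not tested. The 2 GFP+ pairs overlapped in Dppa2 between arms, as given above. All SSEA1+ and GFP+ pairs were from day 8 on; with days 8 to 14 alone the value was 2.54 with an adjusted p of 0.0435. The call was lost in 6 of 13 fits that left out 1 pair (day 14 Thy1+SSEA1-, day 4 Thy1-SSEA1-, any of the 3 Thy1-SSEA1+ pairs or day 14 GFP+), with values of 1.90 to 2.29 and adjusted p up to 0.0858, and it was kept without the library lacking Dppa2, at 2.29 and an adjusted p of 0.0132. Wnt7b had the opposite sign, at -1.25 ± 0.33 (adjusted p = 0.0797, not past the threshold), and passed without that library, at -1.39 and an adjusted p of 0.0355.

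Wnt5a (chr14:28504750-28527448, GRCm38) fell by 0.82 ± 0.21 on the log2 scale (SE, lower in 11 of 13 pairs, limma adjusted p = 0.0122). Thy1+SSEA1- cells had 2.02, 9.17, 3.12 and 1.69 FPKM with Dppa2/4, against 13.1, 14.5, 11.8 and 6.05 FPKM in control cells, and Thy1-SSEA1+ cells 0.899, 3.45 and 1.12 FPKM, against 3.38, 6.13 and 6.27 FPKM. The 9.17 FPKM belongs to the library lacking Dppa2. In Thy1-SSEA1- cells on days 2 and 4 it was the other way round, at 55.9 and 15.2 FPKM with Dppa2/4 and 40.6 and 13.6 FPKM in control cells. The call was lost without day 8 or day 14, with adjusted p up to 0.0865. Fzd2, a Frizzled that works with Wnt5a, fell by 0.46 ± 0.14 (lower in 12 of 13 pairs, adjusted p = 0.0273). Its levels in Thy1+SSEA1- cells were 2.95, 5.74, 5.29 and 3.95 FPKM with Dppa2/4, against 6.82, 11.1, 11.1 and 8.2 FPKM in control cells, without overlap. The 5.74 FPKM belongs to the library lacking Dppa2, whose difference of -0.849 lay near those of the other 3 (-0.987 to -0.896), and without it the difference over all pairs was -0.43 ± 0.15 (adjusted p = 0.0457). Its call was lost in 9 of 18 fits that left out a pair or a day, with adjusted p up to 0.149.

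**Figure D3:**
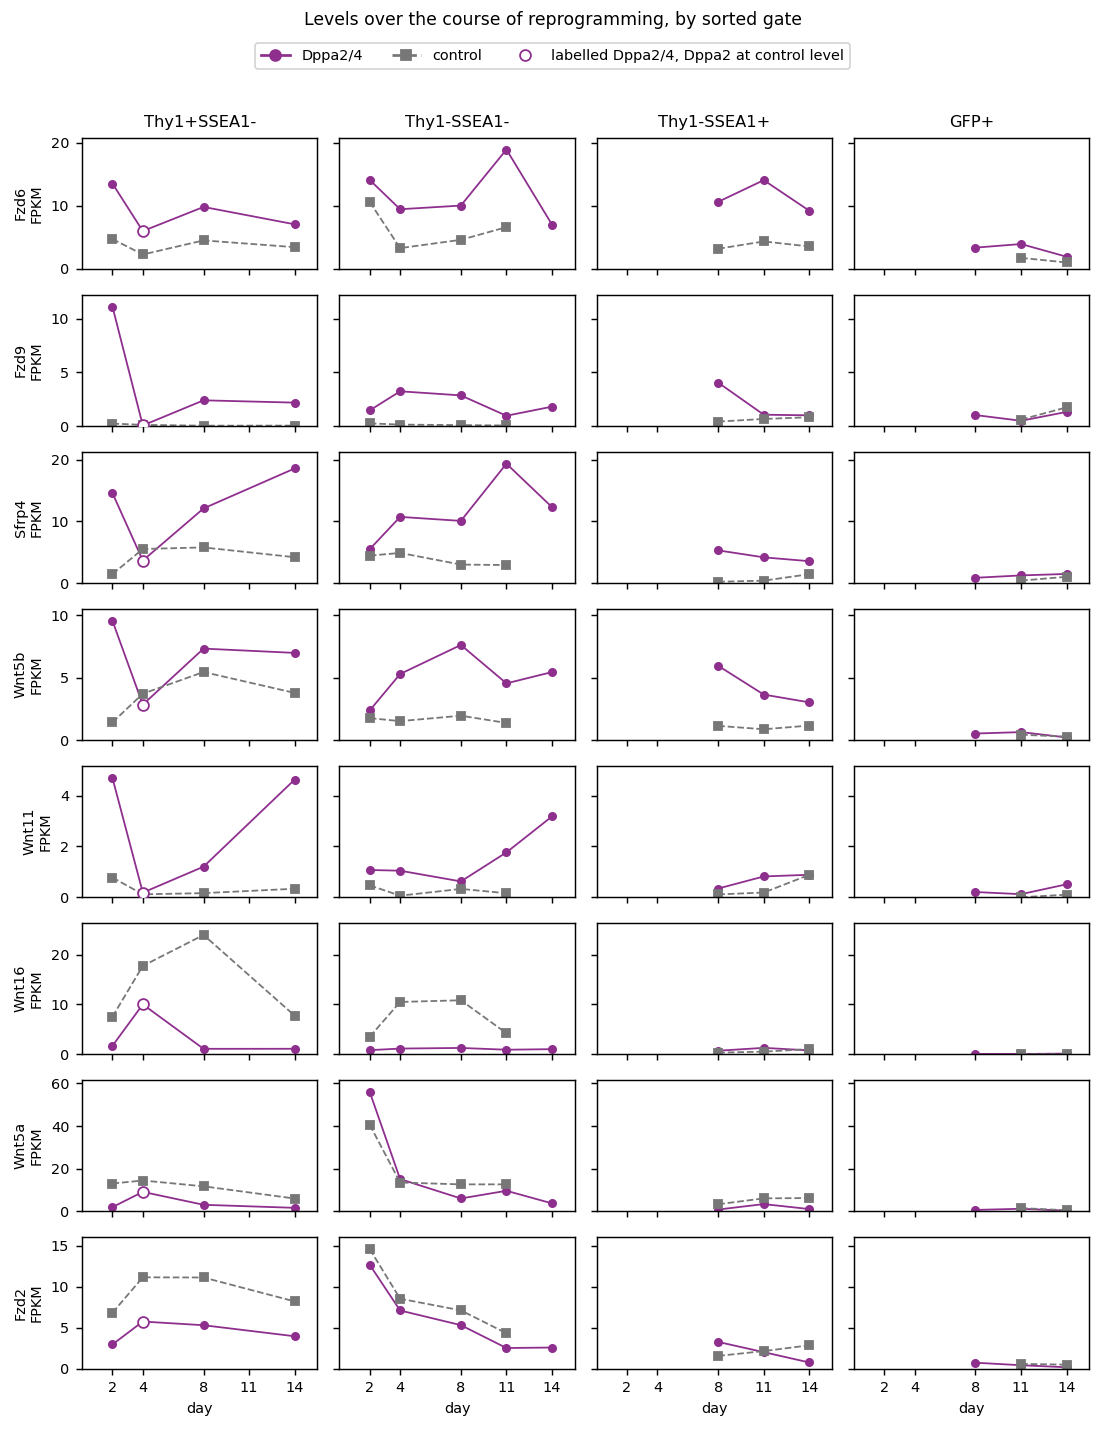
FPKM by day in 4 gates (columns) for 8 members (rows), Dppa2/4 as filled circles and control as squares; the open circle is the library labelled Dppa2/4 with Dppa2 at the control level. That library sits beside the control library for Fzd9, Sfrp4, Wnt5b and Wnt11 and within the range of the control libraries for Wnt16, at 10.0 FPKM, and it lies above all control libraries of the gate for Fzd6 and below them for Fzd2.

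The remaining 18 members tested did not pass in this comparison. The ligands Wnt2, Wnt8a, Wnt4, Wnt10a and Wnt7a were at log2 differences of -0.44, -0.27, 0.07, 0.19 and 0.34. The receptors Fzd5, Fzd10, Fzd7, Fzd1 and Fzd8 were between -0.21 and 0.20. The antagonists Sfrp1, Dkk1, Frzb, Dkk2, Sfrp5 and Sfrp2 were between -0.21 and 0.36, and the co-receptors at the values above. Sfrp1, the most abundant member, was at 31.2 to 151 FPKM with Dppa2/4 and 37.2 to 235 FPKM in control cells.

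The Thy1+SSEA1+ gate, which had Dppa2/4 libraries alone, on days 2 and 4, was set beside Thy1+SSEA1- cells of the same culture. On day 2, none of the 14 members at 5 FPKM or more differed by at least 4-fold (2.64% of all genes at that level did). Fzd9 was at 11.3 FPKM in Thy1+SSEA1+ and 11.1 FPKM in Thy1+SSEA1- cells, Fzd6 at 16.3 and 13.6 FPKM and Wnt5b at 8.14 and 9.56 FPKM. On day 4 the Thy1+SSEA1- side is the library lacking Dppa2. There, 1 of 16 members was at least 4-fold higher in Thy1+SSEA1+ cells (5.13% of all genes) and 6 were at least 4-fold lower (8.02%), 13.2% of all genes in either direction. The higher one was Fzd9, at 5.90 FPKM against 0.0521 FPKM. The lower ones were Wnt5a at 0.721 against 9.17 FPKM, Wnt16 at 0.893 against 10.0 FPKM, Dkk3 at 3.61 against 27.0 FPKM, Dkk2 at 1.21 against 8.62 FPKM, Sfrp1 at 31.8 against 151 FPKM and Lrp6 at 4.41 against 19.9 FPKM. With 1 library on each side these are values with no test, and gate and Dppa2 level cannot be told apart on day 4.

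The libraries titled rtTA-MEF, 1 per arm, were compared as single values. Of 21 members at 5 FPKM or more in either library, 7 were at least 4-fold higher with Dppa2/4 (7.56% of all genes at that level) and none was at least 4-fold lower (1.5%), with 9.06% in either direction. Fzd9 was at 11.0 FPKM with Dppa2/4 and 0.109 FPKM in the control, Wnt2b at 11.1 and 0.236 FPKM, and Sfrp4 at 15.8 and 0.410 FPKM. Frzb was at 14.0 and 0.996 FPKM, Wnt5b at 10.9 and 1.28 FPKM, Fzd4 at 5.37 and 1.19 FPKM, and Wnt7b at 7.64 FPKM, listed at 0 in the control. Fzd6 was at 7.75 and 2.11 FPKM and Wnt5a at 13.6 and 22.1 FPKM, both within 4-fold. The 7 were all members that rose in OSKM cells except Frzb, which did not pass there. Dppa2 was at 4443 FPKM in the Dppa2/4 library, above all OSKM libraries, and at 1.53 FPKM in the control, and Pou5f1 was at 1116 and 122 FPKM although the genotype label lists no OSKM allele. The labels of these libraries conflict, since the titles give rtTA-MEF and day 2 while the descriptions give OSKM-rtTA MEF and day 1, so neither their day nor their genotype is certain. The pair has no replicate, so nothing was tested.

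The SSEA1 gate, which marks cells on the way to pluripotency, went with lower levels of 5 of 9 antagonists tested. In Thy1-SSEA1+ against Thy1-SSEA1- cells of the same culture (5 cultures, days 8 to 14), 10 of 35 members were lower (10.5% of all genes) and 1 was higher (8.24%), with 18.8% of all genes called in either direction. The antagonists Dkk3, Dkk2, Frzb, Sfrp4 and Sfrp1, the receptors Fzd1 and Fzd7, and the ligands Wnt5a, Wnt2b and Wnt10a fell, and the ligand Wnt8a rose. Over the same cultures 10 of 10 fibroblast markers fell and 7 of 8 pluripotency and 4 of 6 epithelial markers rose, as did 1 of 3 endothelial, 1 of 3 keratinocyte and 1 of 4 neural and glial markers, and their part in the result was not tested. All 11 calls were lost without the control day 11 culture, where the adjusted p of Dkk3 and Dkk2 became 0.051, and no sign was reversed. There were 6 calls without control day 8, 5 without Dppa2/4 day 8 and 7 without Dppa2/4 day 11.

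Dkk3 was at 2.69, 17.8 and 14.4 FPKM on days 8, 11 and 14 in Dppa2/4 Thy1-SSEA1+ cells, against 33.3, 82.9 and 87.1 FPKM in Thy1-SSEA1- cells. In control cultures on days 8 and 11 it was at 1.27 and 3.16 FPKM in Thy1-SSEA1+ cells, against 26.4 and 20.7 FPKM. The groups did not overlap, and the log2 difference was -2.77 ± 0.24 (SE, 5 cultures, limma adjusted p = 0.00953). Dkk2 was at 0.273 to 4.11 FPKM in Thy1-SSEA1+ and 6.22 to 18.9 FPKM in Thy1-SSEA1- cells, a difference of -2.09 ± 0.17 (adjusted p = 0.00953). Fzd1 was at 0.919 to 6.61 and 10.4 to 16.1 FPKM, a difference of -1.78 ± 0.32 (adjusted p = 0.0207), and Frzb, also known as Sfrp3, at 0.412 to 2.65 and 2.98 to 6.46 FPKM, a difference of -1.52 ± 0.25 (adjusted p = 0.0169). None of these ranges overlapped.

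Sfrp4 and Wnt5a fell by 1.51 ± 0.19 and 1.38 ± 0.18 on the log2 scale (SE, adjusted p = 0.0117 and 0.0118), with ranges that overlapped. Sfrp1 fell by a smaller amount, 0.76 ± 0.10 (adjusted p = 0.0116), but without overlap, at 31.2 to 48.8 FPKM in Thy1-SSEA1+ and 54.6 to 95.2 FPKM in Thy1-SSEA1- cells. Fzd7 fell by 0.68 ± 0.13 (adjusted p = 0.0241). Wnt8a, a ligand of the primitive streak, was at 2.41, 1.29 and 0.240 FPKM in Dppa2/4 Thy1-SSEA1+ cells, against 0.273, 0.142 and 0.152 FPKM in Thy1-SSEA1- cells, and in control cultures at 4.90 and 3.95 FPKM, against 1.83 and 1.01 FPKM. It was higher in 5 of 5 cultures, by 0.98 ± 0.21 (adjusted p = 0.0302), and that call was lost in 4 of 5 fits that left out 1 culture, as was that of Fzd7. Wnt2b and Wnt10a fell by 0.46 ± 0.12 and 0.42 ± 0.10 at levels of at most 1.44 FPKM, and their calls were lost whichever culture was left out.

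Against Thy1+SSEA1- cells, where 4 cultures (days 8 and 14) could be compared, Thy1-SSEA1+ cells had 5 members lower (7.62% of all genes) and none higher (6.09%), where 13.7% of all genes were called, all of the 5 being antagonists. Dkk3 fell by 3.09 ± 0.34, Dkk2 by 2.08 ± 0.24, Sfrp2 by 1.99 ± 0.40, Sfrp1 by 1.87 ± 0.15 and Sfrp4 by 1.68 ± 0.33 on the log2 scale (SE, limma adjusted p = 0.0383 to 0.0466). Sfrp1 was at 47.9 and 31.2 FPKM in Dppa2/4 Thy1-SSEA1+ cells and 48.8 and 40.0 FPKM in control ones, against 137 and 119 FPKM in Dppa2/4 and 235 and 145 FPKM in control Thy1+SSEA1- cells. All 5 calls were lost whichever culture was left out, with adjusted p up to 0.19, and with no filter on low genes; the signs were the same in 4 of 4 cultures. In the same cultures 7 of 10 fibroblast markers fell and 6 of 8 pluripotency, 4 of 6 epithelial and 1 of 3 keratinocyte markers rose, and their part was not tested. The comparisons between gates share libraries and are not independent of each other.

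No member passed the threshold between the SSEA1- gates that differ in Thy1. Thy1-SSEA1- against Thy1+SSEA1- cells, over 7 cultures from day 2 to day 14, gave 0 of 35 by limma (0.0058% of all genes passed), while 7 had an unadjusted p under 0.05 (10.4% of all genes). In the Dppa2/4 culture of day 4 the Thy1+SSEA1- side is the library lacking Dppa2 (0.354 FPKM, against 111 FPKM in Thy1-SSEA1- cells). Gate and Dppa2 level cannot be told apart there, and the fit without it is not given here. On day 2, Thy1 RNA was at 230 FPKM in Thy1-SSEA1- and 195 FPKM in Thy1+SSEA1- cells with Dppa2/4, and at 164 and 241 FPKM in control cells. The largest difference was that of Frzb, at 1.60 ± 0.20 (SE, higher in 7 of 7 cultures, adjusted p = 0.128). Wif1 and Wnt10a were also higher in 7 of 7 cultures, by 0.47 and 0.60, with adjusted p of 0.212 and 0.227.

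The last step, activation of Oct4-GFP, went with lower levels of 6 of 10 Frizzleds tested and higher levels of 2. In GFP+ against Thy1-SSEA1+ cells of the same culture (5 cultures), 15 of 35 members were lower (24.3% of all genes) and 2 were higher (17.1%), with 41.4% of all genes called in either direction. Of 10 receptors tested, 6 fell (Fzd1, Fzd6, Fzd3, Fzd2, Fzd4 and Fzd8) and 2 rose (Fzd5 and Fzd10). Of 14 ligands 5 fell (Wnt5b, Wnt5a, Wnt9a, Wnt16 and Wnt11), of 9 antagonists 3 fell (Dkk2, Sfrp2 and Wif1), and Lrp6 fell by 0.31 ± 0.09. The median log2 difference was -0.52 over the members tested and -0.09 over all genes. Quantile normalization gave 12 lower and 2 higher members, and moved the calls over all genes from 2957 higher and 4188 lower to 3533 and 3223. In the same cultures 9 of 10 fibroblast markers fell and 8 of 8 pluripotency markers rose. Of the other markers, 3 of 6 epithelial, 3 of 3 keratinocyte, 2 of 3 endothelial and 1 of 2 immune fell and 2 of 4 neural and glial, 1 of 1 muscle and 1 of 3 endothelial rose, and their part in the result was not tested.

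Fzd5 was at 15.4, 18.6 and 16.1 FPKM in Dppa2/4 GFP+ cells on days 8, 11 and 14, against 9.0, 8.54 and 6.82 FPKM in Thy1-SSEA1+ cells, and at 22.5 and 21.5 FPKM in control GFP+ cells, against 11.9 and 9.49 FPKM. The gates did not overlap, and the log2 difference was 0.97 ± 0.09 (SE, limma adjusted p = 0.00266). Fzd10, by the 1 of its 2 rows that was tested, rose by 0.93 ± 0.20 (adjusted p = 0.0157), at 0.552 to 3.30 FPKM in GFP+ and 0.0701 to 0.553 FPKM in Thy1-SSEA1+ cells. The other Fzd10 row was at 0.604 FPKM in control GFP+ cells of day 11 and 0.356 FPKM in control Thy1-SSEA1+ cells of day 14. It was at most 0.137 FPKM in the remaining libraries of these gates. Fzd1 and Fzd6 fell furthest, by 1.48 ± 0.23 and 1.39 ± 0.15 (adjusted p = 0.00692 and 0.00333). Fzd1 was at 0.533 to 0.908 FPKM in GFP+ and 1.67 to 6.61 FPKM in Thy1-SSEA1+ cells, and Fzd6 at 1.02 to 3.95 and 3.57 to 14.1 FPKM. Fzd7 stayed the leading receptor of GFP+ cells in all 5 libraries, at 20.8 to 29.5 FPKM, and did not pass the test.

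Fzd2 and Fzd3 each fell by 1.08 ± 0.14 on the log2 scale (adjusted p = 0.0043 and 0.00439), Wnt5b by 1.31 ± 0.29 (0.0177), Dkk2 by 1.11 ± 0.25 (0.0194), Wnt5a by 1.09 ± 0.31 (0.0374), Sfrp2 by 1.05 ± 0.27 (0.0275) and Wnt9a by 0.98 ± 0.16 (0.00811). Wnt5b was at 0.219 to 0.649 FPKM in GFP+ and 0.876 to 5.96 FPKM in Thy1-SSEA1+ cells, without overlap. Wnt16, already low in Thy1-SSEA1+ cells, fell by a further 0.78 ± 0.10 (0.00487), to at most 0.161 FPKM. When each culture was left out in turn, the calls of Fzd1, Fzd2, Fzd3, Fzd5, Fzd6, Fzd10, Wnt9a, Wnt16 and Wif1 were kept every time, and those of the other 8 were lost at least once. Without Dppa2/4 day 14 there were 9 calls, without Dppa2/4 day 11 there were 10, and without the control day 11 GFP+ library there were 19. The Wnt5a and Lrp6 calls were lost without that control library or with quantile normalization, and the Sfrp2 call with quantile normalization. Lrp6 (limma adjusted p = 0.0469 in the main fit) also lost its call in 4 of 5 fits that left out 1 culture. The share of all genes called is not given here for the fits that left out a culture or library, so these counts are not read as particular to the members.

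**Figure D4:**
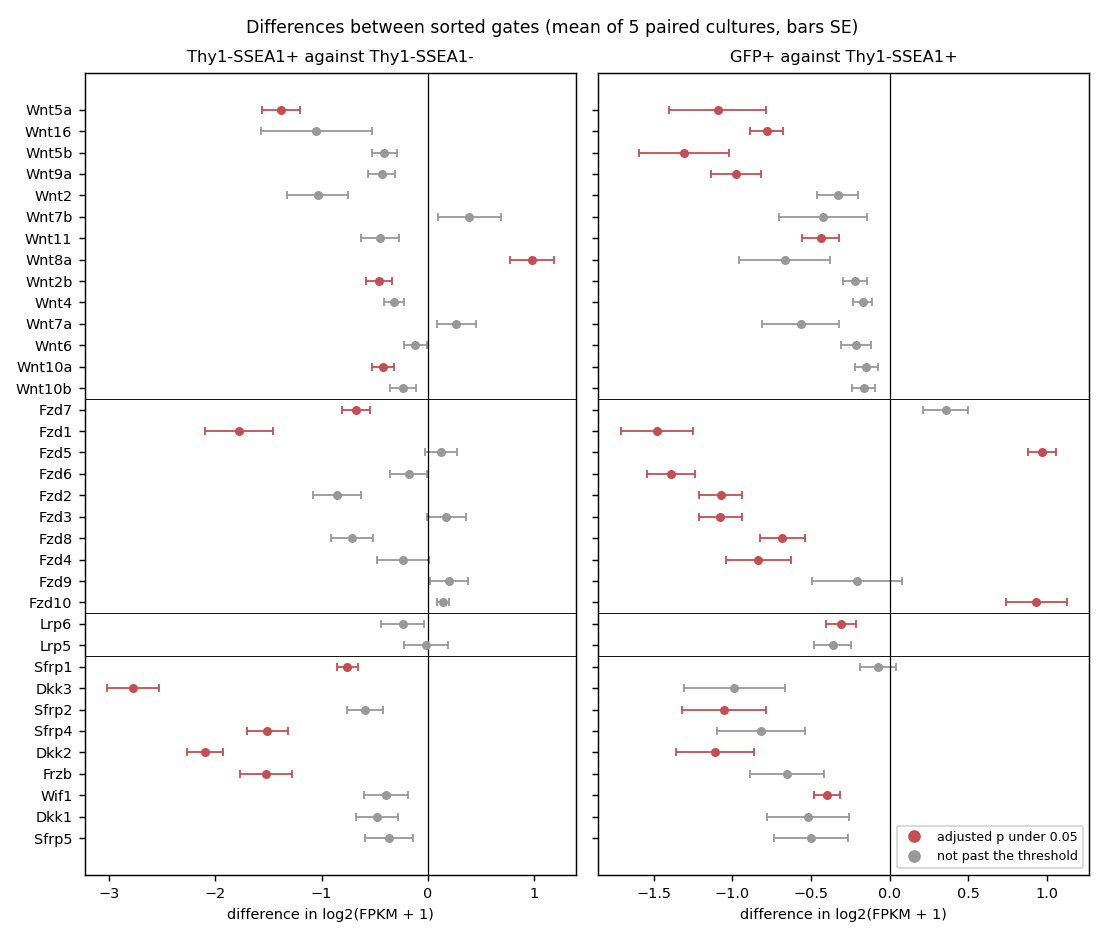
Mean difference in log2(FPKM + 1) with SE for the 35 members tested, Thy1-SSEA1+ minus Thy1-SSEA1- on the left and GFP+ minus Thy1-SSEA1+ on the right, red where the adjusted p was under 0.05. The furthest falls are those of the antagonists Dkk3 (-2.77) and Dkk2 (-2.09) on the left and of the receptors Fzd1 (-1.48) and Fzd6 (-1.39) on the right, where Fzd5 and Fzd10 lie above 0.

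Within a gate, few members passed the test of change with time. In simulated data this test found 19% of the smaller slopes put in for Thy1-SSEA1- cells and 24% for Thy1+SSEA1- cells. A member not called may therefore still have changed. The gates were titled GFP-negative from day 8 on but not on days 2 and 4. In Thy1-SSEA1- cells (9 libraries, days 2 to 14), 1 of 35 members rose with time (1.74% of all genes) and 1 fell (0.841%), with 2.58% of all genes called. Fzd2 fell by 0.16 ± 0.02 per day on the log2 scale (SE, limma adjusted p = 0.0227), being at 12.7, 7.09, 5.30, 2.51 and 2.57 FPKM in Dppa2/4 cells on days 2, 4, 8, 11 and 14 and at 14.6, 8.53, 7.11 and 4.31 FPKM in control cells on days 2, 4, 8 and 11. Wnt7b rose by 0.10 ± 0.02 per day (adjusted p = 0.0448), at 0.511, 1.11, 1.22, 1.99 and 3.83 FPKM in Dppa2/4 cells and 0.0135, 0.0217, 0.257 and 0.340 FPKM in control cells. Both calls were lost without day 2, the Wnt7b call whichever library was left out, and the Fzd2 call in 6 of 9 fits that left out 1 library, with adjusted p up to 0.202 for Wnt7b and 0.133 for Fzd2. Over these days 4 of 10 fibroblast markers fell and 6 of 8 pluripotency and 5 of 6 epithelial markers rose in the gate, as did 1 of 3 endothelial and 1 of 2 immune markers, while 1 of 4 neural and glial markers fell, and their part in the result was not tested.

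In Thy1+SSEA1- cells (8 libraries) 0 of 35 members passed by limma (0% of all genes), with 8 at an unadjusted p under 0.05 (23.8% of all genes). Dkk3 came nearest, at 7.27, 27.0, 48.1 and 107 FPKM in Dppa2/4 cells on days 2, 4, 8 and 14 and 7.30, 16.1, 29.2 and 60.8 FPKM in control cells, 0.25 ± 0.03 per day with an adjusted p of 0.062. Without the library lacking Dppa2, 6 passed: Dkk2, Dkk3, Wif1, Wnt9a and Fzd7 were higher with time, by 0.14, 0.26, 0.03, 0.11 and 0.09 per day, and Fzd3 lower by 0.07 per day. The share of all genes called in that fit is not given here, so the 6 are not read as particular to the members.

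Other genes of the Wnt pathway were followed in 3 lists. Of 23 tested genes among other receptors, secretion factors and extracellular regulators, 3 rose and 4 fell with Dppa2/4, where 15.9% of all genes rose and 7.6% fell. Notum, an enzyme that inactivates Wnts, rose by 0.96, Wls, the carrier that all Wnts need for secretion, by 0.64 in 13 of 13 pairs, and Kremen1, a Dkk receptor, by 0.64 in 13 of 13 pairs; Wls and Kremen1 were singled out after their values were seen. The antagonists Sostdc1 and Sost fell by 1.48 and 0.74. Of 31 intracellular components 3 rose and 4 fell, with the TCF/LEF factor Tcf7 at 0.87, its relative Lef1 at -0.62 and Apc2 at 0.46. Of 23 beta-catenin targets 3 rose and 2 fell, among them Notum and Tcf7, which other lists also hold, and Wisp2 at -0.95. The lists are small, and a few genes would move such counts to either side of the shares over all genes. Median log2 differences of the 3 lists were -0.01, -0.02 and 0.07.

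Between gates, too, these lists moved in both directions. In Thy1-SSEA1+ against Thy1-SSEA1- cells, Wls fell by 2.03, and the R-spondins Rspo2 and Rspo3, which amplify Wnt signals, fell by 1.85 and 1.29, being 3 of 8 that fell and none that rose among 23 regulators (10.5% of all genes fell and 8.24% rose). Among beta-catenin targets Wisp2, Wisp1 and Fst fell by 2.68, 2.46 and 2.15, in a total of 6 that fell and 2 that rose, and among intracellular components Tle4, Tcf7 and Vangl1 rose by 0.99, 0.83 and 0.73, of 4 that rose and 1 that fell. In Thy1-SSEA1+ against Thy1+SSEA1- cells 0, 1 and 2 genes of the 3 lists rose and 1, 2 and 5 fell (6.09% and 7.62% of all genes), with Sostdc1 at -2.72, Tle4 at 1.71 and Sall4, also a pluripotency marker, at 4.08. In GFP+ against Thy1-SSEA1+ cells Wls, Gpc6 and Apcdd1 fell by 2.74, 1.78 and 1.51 among 8 regulators that fell and 1 that rose (24.3% and 17.1% of all genes). Tcf7l2 and Prickle2 fell by 1.43 and 1.36 and Vangl1 rose by 1.33 among 8 intracellular genes that rose and 7 that fell, and Ccnd1 fell by 2.15 and Sall4 rose by 1.86 among 5 targets that rose and 6 that fell. No gene of the 3 lists passed when the effect of Dppa2/4 was compared between gates or between the SSEA1- gates that differ in Thy1. Sall4, at 0.32 per day in Thy1-SSEA1- cells, was the only one to pass the test of change with time.

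Wnt genes often lie in pairs that arose by ancient duplication, and 4 pairs of members were neighbours here. Wnt6 and Wnt10a lie 6.19 kb apart on chr1 (chr1:74771892-74785322 and chr1:74791516-74804179, GRCm38), and Wnt6 rose with Dppa2/4 by 0.48 while Wnt10a was at 0.19 (adjusted p = 0.0719). Wnt10b and Wnt1 lie 11.7 kb apart on chr15, where Wnt10b rose and Wnt1 stayed below 1 FPKM. Wnt9a and Wnt3a lie 16.2 kb apart on chr11, where Wnt9a rose and Wnt3a stayed below 1 FPKM, and Wnt9b and Wnt3, 24.3 kb apart on the same chromosome, were both below 1 FPKM in every library.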

How the data were processed

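The deposited table holds FPKM for 37973 genes. The authors, per the submitters' processing notes, aligned reads to mm10 with TopHat2 and quantified them with Cuffdiff, whose versions and annotation are not given in the sources used here. Of 33 value columns, 32 were matched to a sample by name and 1 was not used. A pair of columns naming only arm and day 2 was assigned to the rtTA-MEF samples because the names of all other columns of day 2 hold a gate.

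Genes at 1 FPKM or more in at least 2 libraries (17242) were tested as log2(FPKM + 1) with limma 3.58.1 (R 4.3.3, eBayes with a trend), with day and gate as a block between arms and the culture (arm and day) as a block between gates. Change per day had the arm as a term. The calls were tested on simulated data. Depth was implied from the smallest FPKM steps of long single-transcript genes, so low values are coarse: the median Wnt10b value rests on about 9 fragments. Members with a mean of at least 1 FPKM in 1 group and an adjusted p under 0.05 are given in full, the 10 largest per comparison, and of the other lists the 3 with the largest change. As alternatives, the filter was dropped or set to a mean of at least 5 FPKM, and the pseudocount was 0.1, besides quantile normalization, no block, and leaving out single pairs, days or libraries. The members and gene lists were chosen with earlier results of these data known. Coordinates are GENCODE vM21 (GRCm38). Tables and plots used Python 3.11.15, pandas 2.3.3 and matplotlib 3.10.9.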

Additional observations from a re-analysis of the deposited data

Results flagged for a closer look

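The difference in Wnt16 between arms was not the same in all gates. In the 5 SSEA1+ or GFP+ pairs it was 0.18 on average and in the 8 SSEA1- pairs -1.94, on the log2(FPKM + 1) scale, and the difference of 2.13 passed the limma test (adjusted p = 0.0258). Wnt16 was at 0.0755 to 1.30 FPKM with Dppa2/4 and 0.0507 to 1.06 FPKM in control cells of the SSEA1+ or GFP+ pairs. At such control levels a fall of the size seen in the SSEA1- pairs could not show, so the test cannot separate gate from floor.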

How the results depend on the processing

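No member that passed the test reversed its direction under the alternatives run; directions of the other members were not followed. Counts of members called moved as follows. The shares of all genes called in the same fits are not set beside them, so the moves are not read as particular to the members. For Dppa2/4 against control, 17 members were called, 5 with a mean FPKM of at least 5 (13 members tested) and 6 with no block, and 9 to 18 when a pair or day was left out. For the effect by gate, 1 was called, 2 with a pseudocount of 0.1, 2 without the library lacking Dppa2, 0 with a mean FPKM of at least 5, 0 with no block, and 0 to 2 when a pair was left out. For Thy1-SSEA1+ against Thy1-SSEA1-, 11 were called, 7 with a mean FPKM of at least 5, 5 with no block, and 0 to 9 when a culture was left out. For Thy1-SSEA1+ against Thy1+SSEA1-, 5 were called, 0 with no filter, 9 with quantile normalization, and 0 when any culture was left out. For GFP+ against Thy1-SSEA1+, 17 were called, 4 with a mean FPKM of at least 5, and 9 to 19 when a culture was left out. For change per day in Thy1+SSEA1-, 0 were called, 1 with a mean FPKM of at least 5, 6 without the library lacking Dppa2, and 0 to 6 when a library was left out. For change per day in Thy1-SSEA1-, 2 were called, 1 with no filter, 1 with a mean FPKM of at least 5, 0 without day 2, and 0 to 1 when a library was left out. The stricter filter tests fewer members; the cause of the other changes was not tested. No paired analysis by replicate number was possible because each arm, day and gate had 1 library.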
